A study of Arabidopsis thaliana with 30 samples.

Results

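Stratification is the cold, dark and moist period that releases dormancy in seeds of Arabidopsis thaliana and lets them germinate evenly once they reach warmth and light. The comparison described here takes 2 points of that period, seeds after 12 h and seeds after 1 h of stratification, with 3 arrays at each point, so 6 of the 30 arrays of a germination series with 10 groups of 3. Seeds of both groups were of the ecotype Col-0, with no genotype or agent other than the treatment named, dried for 14 days by the treatment label (the design text gives 1 day more), surface sterilised, plated on MS medium and kept at 4 °C in darkness. RNA came from 80 mg of whole seeds per sample, and 400 ng of total RNA was hybridised to an Affymetrix ATH1 array. The other groups were freshly harvested seed, dry seed, seed after 48 h of stratification, and seed moved after that to continuous light (100 µE per square metre per second) at 22 °C for 1, 6, 12, 24 or 48 h.

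A dry seed carries messenger RNA made during maturation on the mother plant, among it transcripts of storage proteins, of oil body proteins and of late embryogenesis abundant (LEA) proteins, which protect cells during drying. Water uptake restarts respiration and transcription within hours, and stored transcripts are then broken down while new ones are made. Cold and restricted oxygen inside the seed coats are both conditions to which Arabidopsis cells respond by transcription, cold through CBF and zinc finger factors, and oxygen shortage through group VII ethylene response factors.

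The values are the intensities that the authors deposited, and a difference is the mean of log2(intensity + 16) at 12 h minus that at 1 h, with its standard error (SE) from a limma model over all 30 arrays. A probe set counted as changed where its Benjamini-Hochberg adjusted p was under 0.05 and its difference was at least 1 in size, which is a doubling on that scale. Of 22746 probe sets 13513 name exactly 1 gene, and 11933 of those names are locus numbers alone. The arrays had medians of 11.8 to 12.3 at 12 h and 11.8 to 11.9 at 1 h, and arrays of a group correlated at 0.995 to 0.996 at 12 h and 0.992 to 0.994 at 1 h. The labels do not say whether the 3 samples of a group came from separate seed lots. The SE and p-values rest on the spread within all 10 groups, not only the groups compared, and that spread may be technical. A gene that varies in another group therefore has a larger SE here. In whole seeds, fewer cells of a type and less RNA per cell cannot be told apart.

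The tissue label was set against transcripts known from mature seed. Of 9 storage and oil body markers 3 are named on the array, and their summed intensity lay between 12547 and 13850 at 12 h and between 14355 and 15368 at 1 h. BAN, a seed coat gene of the developing seed, was at 4.2 at 12 h and 4.3 at 1 h, and the leaf marker RCA, the activase of Rubisco, was at 8.9 at 12 h and 15.3 at 1 h. Of 5 markers of pollen and anther 3 are named, and their sum was low, at 22.5 to 37.0 at 12 h and 55.2 to 87.9 at 1 h. The ranges of this sum did not overlap between the groups. Nor did those of the storage and oil body sum or of BAN, all lower at 12 h. The part of the pollen and anther markers in the lower calls given below was not tested. No endosperm marker of the 3 listed is named.

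Across the whole array 3.77% of probe sets changed, 2.88% (655) upwards and 0.888% (202) downwards, while the median difference of all 22746 was -0.01. Rises were larger than falls on the scale used. The added 16 limits how far a fall from a low intensity can go, and the lower quartile of the 202 at 1 h was 164.2. Among the 655, 71 rose at least 8-fold and 23 at least 16-fold on the log2(intensity + 16) scale, while 1 of the 202 fell at least 8-fold and none 16-fold. The median difference was 1.57 among the probe sets that rose and -1.31 among those that fell. Dim and bright transcripts were both among the rises, since 171 of the 655 had a mean under 16 at 1 h, and 98 reached 1000 or more at 12 h, against 13 at 1 h. Of the 202 falls 16 had a mean under 16 at 12 h, and 12 were at 1000 or more at 12 h, against 55 at 1 h. The call took a size of 1 as well as the adjusted p, and on the adjusted p alone 4352 probe sets (19.1%) differed.

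**Figure D1:**
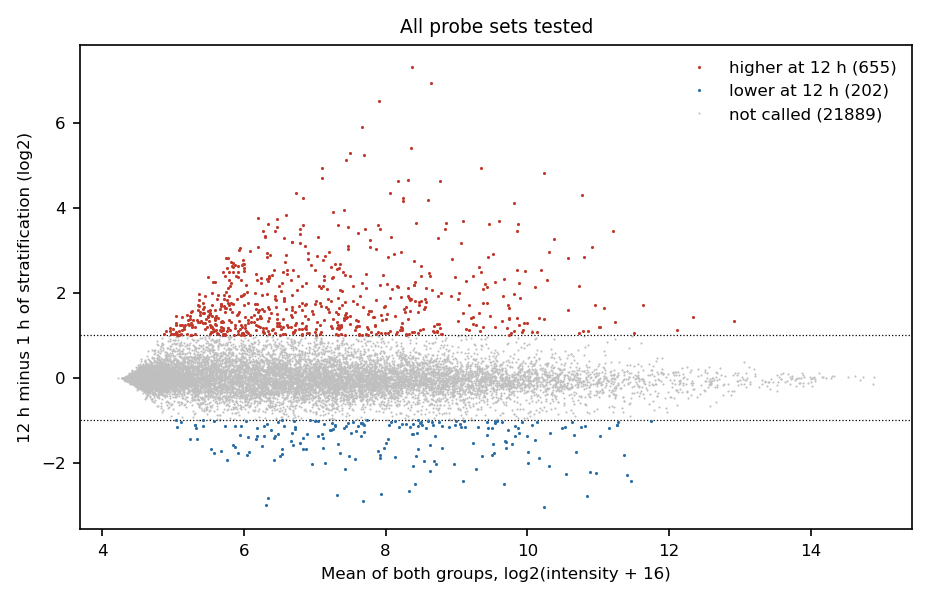
Difference between 12 h and 1 h of stratification (log2) against the mean of both groups on the log2(intensity + 16) scale, 1 point per probe set, with dotted lines at 1 and -1. The 655 probe sets higher at 12 h spread to above 7, and the 202 lower ones reach only about -3.

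The 20 largest rises among named genes held 3 with a symbol. UGT76B1, a UDP-glycosyltransferase that conjugates small signalling molecules of plant immunity, had 730.8, 946.0 and 774.4 at 12 h, against 62.6, 45.0 and 48.9 at 1 h. The difference was 3.61 (SE 0.17, adjusted p = 2.09e-13). RALFL33, which encodes a secreted peptide of the RALF family that signals at the cell surface, had 739.9, 817.2 and 853.3 at 12 h, against 60.8, 47.4 and 60.5 at 1 h (3.51, SE 0.20, adjusted p = 3.12e-12). In both genes every array at 12 h lay more than 10-fold above the 1 h array with the highest value. CML38, a calmodulin-like calcium sensor, had 206.7, 253.7 and 245.2 at 12 h and only 7.1, 9.0 and 10.0 at 1 h (3.34, SE 0.18, adjusted p = 1.14e-12).

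The other 17 carry a locus number alone, and the largest rises were those of AT3G19680 (7.31), AT4G10270 (6.94) and AT2G38240 (5.29). AT3G07470 had 617.1, 683.5 and 766.5 at 12 h, against 9.2, 9.8 and 13.8 at 1 h (4.71, SE 0.15, adjusted p = 9.52e-17). AT4G27280 had 1454, 1381 and 1447 at 12 h, against 46.4, 42.3 and 38.1 at 1 h (4.63, SE 0.14, adjusted p = 5.96e-17). Both were dim at 1 h, whereas AT1G32920 was well measured at both times. AT1G32920 had 7470, 7430 and 7972 at 12 h, against 480.9, 287.5 and 370.2 at 1 h (4.3, SE 0.15, adjusted p = 9.49e-16), and was also among the 5 brightest of the rises at 12 h. Of the other 4 of those 5, AT4G36010 had 5862, 5882 and 5030 at 12 h, against 650.1, 654.4 and 636.7 at 1 h (3.08, SE 0.11, adjusted p = 9.73e-16). AT5G54940, AT3G05500 and AT5G65660, the brightest of the 5 at 1 h, rose by 1.33, 1.43 and 1.13.

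**Figure D2:**
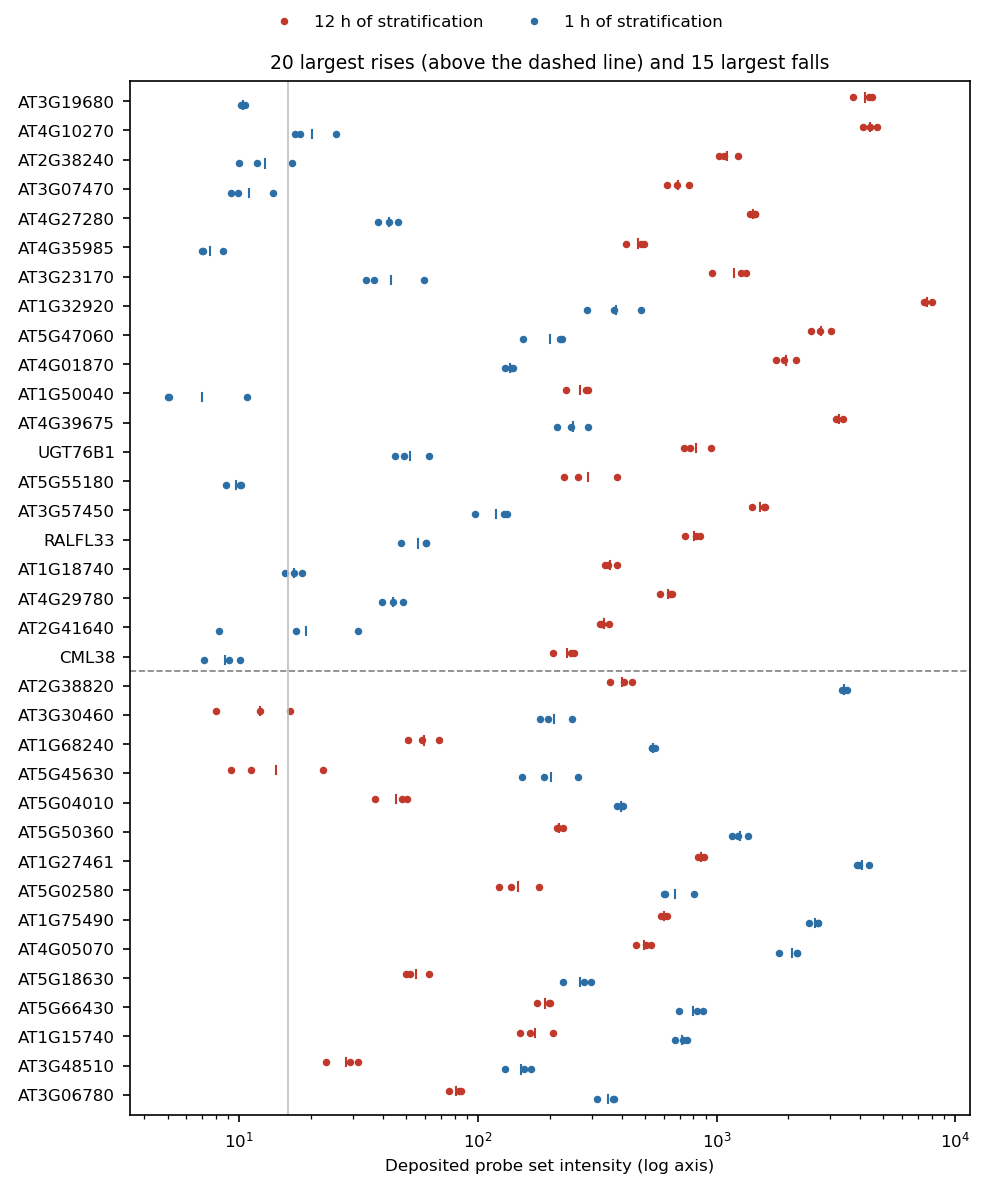
Deposited intensity (log axis) of each array for the 20 largest rises and, under the dashed line, the 15 largest falls among probe sets that name 1 gene, 12 h of stratification above 1 h in each row, short bars being group means and the grey line an intensity of 16. Genes were chosen for groups that do not overlap, and AT1G32920 is the brightest of the rises at 12 h and AT1G27461 of the falls at 1 h.

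Of the 655 probe sets that rose 296 name 1 gene, and 44 of those genes carry a symbol. They were read by role after their values were seen, and all values stand beside the 2.88% of the array that rose. Genes that act at the cell wall or in growth are given first, although the cell wall loosening list had no call among 9 named members and a median of -0.05. EXGT-A3, a xyloglucan endotransglucosylase that cuts and rejoins wall polymers, had 836.8, 768.3 and 831.5 at 12 h, against 79.5, 104.3 and 87.5 at 1 h (2.97, SE 0.11, adjusted p = 1.46e-15). It was the 1 call among 10 named members of its family, whose median was -0.05. EXO, which promotes cell expansion in response to brassinosteroids, rose by 2.03, COB (COBRA), which directs the orientation of cellulose and of cell expansion, by 1.67, ARL (ARGOS-like), a promoter of organ growth, by 1.59, and CSLC04, a glucan synthase for the xyloglucan backbone, by 1.33. EXLA1, an expansin-like protein, had 557.8, 592.7 and 663.5 at 12 h, against 313.1, 255.9 and 249.9 at 1 h (1.11, SE 0.20, adjusted p = 0.000295).

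Receptors and peptides of wall sensing were called as well. FER (FERONIA), the receptor kinase that binds RALF peptides, had 508.4, 539.9 and 486.9 at 12 h, against 154.7, 148.7 and 188.4 at 1 h (1.56, SE 0.10, adjusted p = 2.91e-11). THE1 (THESEUS1), a related receptor kinase, was dim and had 32.9, 30.8 and 29.0 at 12 h, against 7.8, 6.6 and 6.6 at 1 h (1.03, SE 0.16, adjusted p = 4.34e-05). Among 11 RALF-like genes, RALFL33 and the dim RALFL22 (1.16) rose and none fell, and the family's median difference was 0.09.

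Chromatin and cytoskeleton genes made up a further group. All 4 named H2B histone genes had a positive difference, with a median of 0.98 beside -0.01 over the array. Of these 2 passed the call, beside 2.88% of all probe sets that rose. The family was picked out after its values were seen. HTB1 had 322.3, 353.4 and 330.3 at 12 h, against 92.1, 75.3 and 102.3 at 1 h (1.74, SE 0.12, adjusted p = 1.72e-10), and HTB11 rose by 1.05, while HTB2 and HTB4 had differences of 0.91 and 0.77. TUB9, a beta tubulin, had 619.5, 597.5 and 669.9 at 12 h, against 180.1, 166.2 and 191.2 at 1 h (1.73, SE 0.08, adjusted p = 1.14e-13), and the alpha tubulin TUA1 rose by 1.23. The other 5 named tubulins had differences between -0.07 and 0.11. The median over the 7 was 0.05.

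Transcription factors with a symbol that rose were BZIP53, BZIP60, NGA1, WRKY6, HYH, NAC014 and the zinc finger STZ (also called ZAT10). BZIP53, a leucine zipper factor that activates seed maturation genes together with ABI3, had 983.9, 935.8 and 1006 at 12 h, against 255.7, 235.6 and 277.8 at 1 h (1.87, SE 0.10, adjusted p = 2.31e-12). BZIP60, which switches on the response to unfolded proteins in the endoplasmic reticulum, had 751.2, 799.9 and 879.3 at 12 h, against 356.9, 278.2 and 306.0 at 1 h (1.33, SE 0.10, adjusted p = 1.1e-09). HYH, a relative of the light signalling factor HY5, rose in darkness by 1.1, with 68.7, 119.2 and 103.9 at 12 h, against 40.2, 38.7 and 29.5 at 1 h. STZ, a repressor of stress genes, had 3990, 4031 and 4035 at 12 h, against 528.8, 551.7 and 579.3 at 1 h (2.83, SE 0.08, adjusted p = 5.07e-17).

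Single enzymes of conjugation and detoxification were called, while their families had medians near 0. GSTU22, a glutathione transferase of the tau class, had 194.4, 216.8 and 183.1 at 12 h, against 8.0, 9.8 and 9.8 at 1 h (3.09, SE 0.11, adjusted p = 1.02e-15), and was called alone among 11 named members of its class (median -0.05). IAGLU, which joins glucose to the auxin indole-3-acetic acid, had 316.8, 311.8 and 247.7 at 12 h, against 55.7, 63.9 and 84.3 at 1 h (1.88, SE 0.15, adjusted p = 1.34e-09). Over 48 named glycosyltransferases 3 rose (UGT76B1, IAGLU and UGT78D1) and 2 fell (UGT76C1, by 1.82, and UGT85A5, by 1.07), with a median of -0.01. PUB25, a U-box ubiquitin ligase, was dim, with 37.1, 39.1 and 40.3 at 12 h, against 3.8, 3.9 and 3.9 at 1 h (1.46, SE 0.02, adjusted p = 3.19e-25), and it lay near 4 in dry seed and in seed stratified for 48 h as well.

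Several of these rises rest on the size chosen for a call. With 64 added to each intensity in place of 16, THE1, RALFL22, CSLC04, EXLA1, HTB11, TUA1, NGA1, WRKY6, HYH, NAC014, UGT78D1 and PUB25 stayed higher at 12 h but under a difference of 1, HTB11 was under 1 also without 12 h replicate 3 or 1 h replicate 2, THE1 without 12 h replicate 1, and HYH with quantile normalization and without 12 h replicate 2.

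The low oxygen list was put together from genes known to respond to hypoxia in Arabidopsis seedlings. Earlier results of these data, among them the rise of AT4G10270, were already known, so the list's share of calls is not a test. Of 41 listed genes 20 are named on the array, and 8 of those rose (40%, against 2.88% of all probe sets higher) while none fell. Among the 8349 probe sets with a mean of at least 50 at 12 h or 1 h, 608 were called higher. The list's median difference was 0.56, beside -0.01 over the array. On the adjusted p alone 11 were higher and 1 lower, beside 19.1% of all probe sets that differed in either direction.

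CML38, given above, is the calcium sensor of the group. AT3G10040, annotated as HYPOXIA RESPONSE ATTENUATOR1, a factor that restrains the hypoxia response, had 121.5, 118.5 and 120.8 at 12 h, against 7.6, 9.2 and 7.5 at 1 h (2.5, SE 0.13, adjusted p = 1.48e-12). AT4G39675 had 3201, 3376 and 3172 at 12 h, against 289.1, 213.9 and 245.4 at 1 h (3.63, SE 0.27, adjusted p = 5.12e-10). AT1G33055 had 271.1, 285.7 and 330.6 at 12 h, against 16.6, 17.9 and 18.4 at 1 h (3.21, SE 0.22, adjusted p = 1.01e-10). The remaining calls were AT5G66985 (2.3), AT1G26270 (1.81) and AT4G17670 (1.47). The groups did not overlap in any of the 8, which held for all 655 probe sets called higher. AT4G17670 lost its call with 64 added in place of 16, and AT3G27220, at 0.97, passed it with 1 added and without 12 h replicate 1 or 1 h replicate 1.

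Members of the list that were abundant at 1 h differed less. PDC2, a pyruvate decarboxylase of ethanol fermentation, had 4595, 4483 and 4334 at 12 h, against 3210, 3108 and 3302 at 1 h, a difference of 0.48 (SE 0.10, adjusted p = 0.0016) under the size needed for a call. AT4G27450 had 5476, 5995 and 6252 at 12 h, against 6671, 5978 and 6192 at 1 h, and the groups overlapped (-0.09, SE 0.41, adjusted p = 0.958). That SE includes the spread at 48 h of light, where the mean was 274.9 with a standard deviation of 236.8. AT3G10020 and AT1G19530 had differences of -0.30 and -0.46. The 5 members AT5G10040, AT3G29970, AT5G42200, AT5G45960 and AT4G33560, stayed under 16 in every array of both groups.

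**Figure D3:**
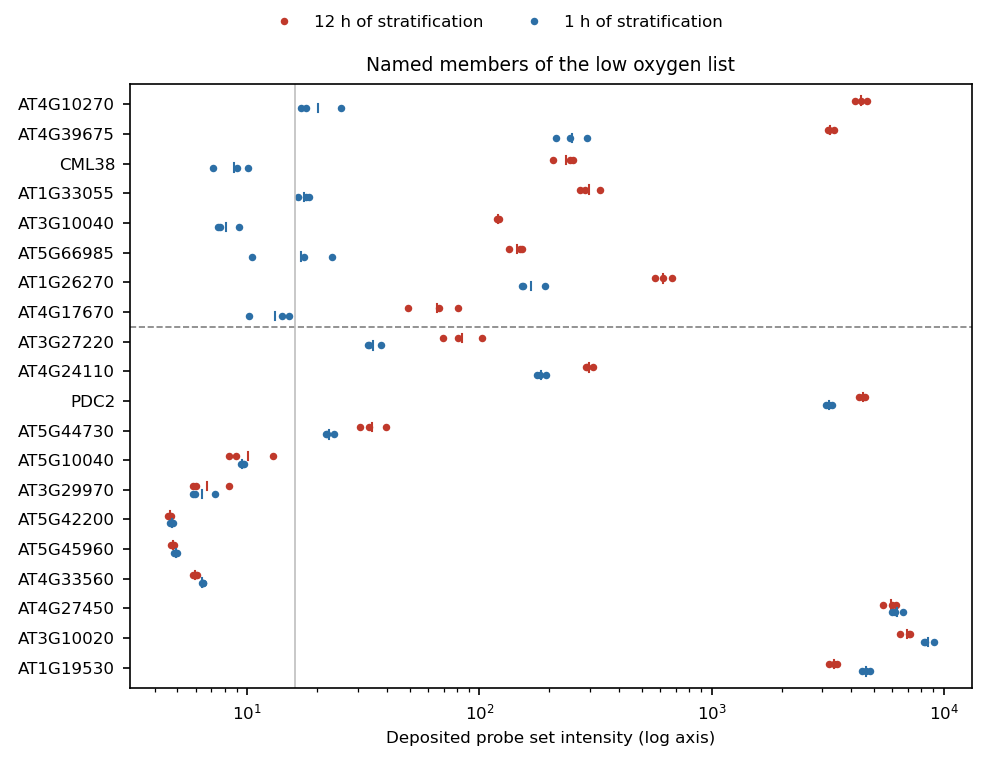
Deposited intensity (log axis) of each array for the 20 named members of the low oxygen list, 12 h of stratification above 1 h in each row, sorted by difference, with the 8 called genes above the dashed line and a grey line at 16. The called genes were at low or middling values at 1 h, and AT4G27450, AT3G10020 and AT1G19530 lie at the bright end in both groups.

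Of 26 genes of the cold response list 8 are named, and STZ and AT4G30650 rose (25%, against 2.88% of all probe sets). Both were put on the list with their rise known, while none fell and the median was 0.14. On the adjusted p alone 3 were higher and 0 lower, beside 19.1% of all probe sets that differed in either direction. Besides STZ and AT4G30650 these held COR27, with means of 582.8 at 12 h and 364.8 at 1 h (0.65, SE 0.13, adjusted p = 0.000698). AT4G30650 had 135.2, 116.6 and 175.9 at 12 h, against 10.8, 8.5 and 7.5 at 1 h (2.66, SE 0.14, adjusted p = 7.34e-13), and averaged 1538 at 48 h of stratification. The cold-regulated COR15A, COR15B and COR47, which encode protective proteins in cold acclimated leaves, lay under 9 in all 6 arrays. LTI30, a cold-induced dehydrin that also accumulates in seeds, averaged 13474 at 12 h and 12692 at 1 h, with a difference of 0.09 (SE 0.11, adjusted p = 0.722).

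Hormone lists were thinly covered. Jasmonate had 5 named members of 33, of which AT2G38240 (5.29) and AT5G05600 (2.5) rose, beside 2.88% of all probe sets. The list was made with earlier results known, and the other 3 lay under 6 in every array. The median of the 5 was 0.00. No gene of the abscisic acid list of 30 is named. Of the gibberellin list 4 of 26 are named and none was called, with the gibberellin receptor gene GID1C at 20.6, 21.6 and 17.41 at 12 h, against 60.6, 37.4 and 54.9 at 1 h (-0.89, SE 0.10, adjusted p = 6.9e-07), and SLY1, whose product targets DELLA proteins for breakdown, at 0.88. EIN3, the transcription factor of ethylene signalling that alone represents its list of 34, had 2042, 2308 and 2058 at 12 h, against 1621, 1542 and 1662 at 1 h (0.40, SE 0.10, adjusted p = 0.00697).

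Smaller or family lists had single calls. WRKY6 rose (1.33) among 3 named WRKY factors, STZ among 2 stress zinc fingers, CML38 among 6 calcium and touch genes and GSTU22 among 5 glutathione transferase and redox genes. These stand beside 2.88% of all probe sets that rose, and STZ and CML38 were already counted in the cold and low oxygen lists. No call was made for the 3 named clock genes, of which AT5G52660 had the largest difference (-0.39), nor for 9 cell wall loosening genes, led by the expansin EXPA15 (-0.32). Ribosome biogenesis had 14 named members with a median of 0.22 and no call, and the nucleolar protein gene YAO came closest, with 197.8, 190.1 and 183.0 at 12 h, against 96.9, 98.4 and 122.9 at 1 h (0.76, SE 0.13, adjusted p = 9.05e-05). The 6 cytosolic ribosomal protein genes had a median of -0.01, with AT3G09630 farthest out at 0.28. With 3.77% of all probe sets changed, lists of these sizes can lack a call without differing from the array.

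The lists of transcripts stored at maturation had no call, beside 0.888% of all probe sets that fell and 2.88% that rose. At these shares lists of this size can lack a call without differing from the array. None of 23 named LEA genes changed by the call's size, although AT2G03850, AT3G53770 and AT2G33690 had means under 16 in both groups, where no fall could be called. The median difference was -0.12, and on the adjusted p alone 3 were lower and 0 higher. The largest difference was that of AT2G42560, at 5356, 5228 and 3881 at 12 h, against 7012, 8045 and 7834 at 1 h (-0.67, SE 0.27, adjusted p = 0.0888). Among 5 storage protein and oleosin genes none was called and the median was -0.11. PAP85, a storage protein of the vicilin type, averaged 23785 at 12 h and 23443 at 1 h. AT1G03890 had the largest difference of these 5, at -0.42.

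The falls held other genes. SIS, annotated as Salt Induced Serine rich, had 1326, 1455 and 1377 at 12 h, against 5310, 4491 and 4993 at 1 h (-1.82, SE 0.10, adjusted p = 4.9e-12), and was the brightest named gene of the falls at 1 h. AT1G27461 had 886.5, 858.0 and 833.2 at 12 h, against 3938, 3877 and 4365 at 1 h (-2.22, SE 0.11, adjusted p = 4.42e-13). AT1G75490 had 602.0, 584.0 and 620.9 at 12 h, against 2674, 2661 and 2433 at 1 h (-2.07, SE 0.09, adjusted p = 4.73e-14). These transcripts were abundant in dry seed too, at means of 5547 for SIS, 4370 for AT1G27461 and 2161 for AT1G75490.

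The 3 largest falls by difference were AT2G38820 (-3.05), AT3G30460 (-2.99) and AT1G68240 (-2.89). AT5G45630 had 11.2, 22.3 and 9.2 at 12 h, against 263.8, 152.4 and 188.3 at 1 h (-2.84, SE 0.20, adjusted p = 1.18e-10). AT5G04010 had 50.6, 36.9 and 48.1 at 12 h, against 382.9, 402.9 and 406.2 at 1 h (-2.76, SE 0.07, adjusted p = 8.4e-18). The other 8 of the 15 largest falls had differences between -2.43 (AT5G50360) and -1.92 (AT3G06780). Beside SIS and AT1G27461, the brightest falls were AT1G05340 (-1.01), AT1G76590 (-1.12) and AT5G16650 (-1.05), with 1 h means of 4834, 3595 and 3548.

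Of the genes that fell 12 carry a symbol, and 2 of these encode ATG8 proteins, the small ubiquitin-like proteins that coat autophagosome membranes during autophagy. ATG8H had 1282, 945.0 and 1214 at 12 h, against 2751, 2418 and 2513 at 1 h (-1.16, SE 0.14, adjusted p = 8.61e-07). ATG8E had 72.1, 74.8 and 98.9 at 12 h, against 237.6, 181.8 and 219.1 at 1 h (-1.23, SE 0.18, adjusted p = 2.51e-05). Neither gene's groups overlapped, which held for all 202 probe sets called lower. Over the 7 named ATG8 genes the median was -0.74, with ATG8C, ATG8F and ATG8G at -0.88, -0.74 and -0.71 and under the size for a call, ATG8B at -0.37, and ATG8D at 0.68. AT5G66930, annotated as AUTOPHAGY-RELATED 101, a subunit of the complex that starts autophagy, fell by 1.14. The autophagy genes were picked out after their values were seen, beside 0.888% of all probe sets that fell.

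XERICO, a RING protein gene that raises abscisic acid levels in Arabidopsis when overexpressed, had 169.7, 164.4 and 163.1 at 12 h, against 595.5, 622.5 and 688.3 at 1 h (-1.84, SE 0.08, adjusted p = 7.5e-14). SWEET6, of a family of sugar carriers, had 590.7, 541.3 and 615.5 at 12 h, against 1535, 1542 and 1308 at 1 h (-1.30, SE 0.12, adjusted p = 1.62e-08), and was called alone among 14 named SWEET genes. GAMMA-VPE, a vacuolar processing protease, fell by 1.09, PYE, an iron deficiency regulator, by 1.21, and UBP15, a ubiquitin-specific protease, by 1.31. LHCB4.1, an antenna protein of photosystem II, fell by 1.33 as the sole call among 5 named photosynthesis genes, whose median was -0.31. The SWEET and photosynthesis calls stand beside 0.888% of all probe sets that fell.

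With 64 added in place of 16, ATG8E, GAMMA-VPE, PYE, UBP15, LHCB4.1, UGT85A5, AT3G26510 and AT1G05340 stayed lower at 12 h but under 1 in size. AT1G05340 was under 1 also with quantile normalization, without 12 h replicate 2 and without 1 h replicate 1 or 3, AT5G16650 without 12 h replicate 1 or 2 or 1 h replicate 1, and UGT85A5 without 1 h replicate 1.

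Of 28 heat shock genes 9 are named. Of these 1 fell (AT5G37670), beside 0.888% of all probe sets, none rose, and the median was -0.41. AT5G37670 had 419.9, 451.0 and 502.9 at 12 h, against 1353, 806.2 and 1101 at 1 h (-1.19, SE 0.21, adjusted p = 0.000178). On the adjusted p alone 3 of the 9 were lower and 0 higher.

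The probe sets called here followed different courses through the rest of the series. In order of time the 655 that rose had median intensities of 39.0 in fresh seed, 38.4 in dry seed, 42.2 at 1 h, 210.9 at 12 h and 115.3 at 48 h of stratification, then 107.2, 72.8, 69.9, 89.1 and 73.3 at 1, 6, 12, 24 and 48 h of light. The group with the highest mean was 12 h of stratification for 353 of them, 48 h of stratification for 107 and 48 h of light for 74, which are 53.9%, 16.3% and 11.3% of the 655. Over all probe sets tested these shares were 8.41%, 7.73% and 16.7%. The 202 that fell had medians of 431.9 in fresh seed, 384.2 in dry seed, 424.3 at 1 h, 128.8 at 12 h and 40.1 at 48 h of stratification, and ended at 17.64 after 48 h of light. The choice of the probe sets fixes the step between 1 h and 12 h in these medians and favours 12 h as the highest group.

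**Figure D4:**
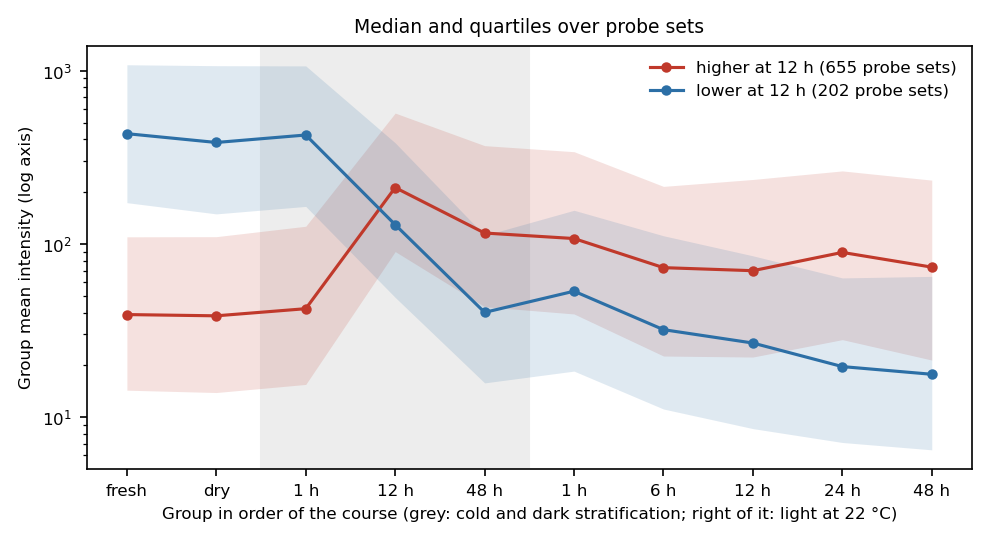
Median (line) and quartiles (band) over probe sets of the group mean intensity (log axis) in the 10 groups in order of time, for the 655 probe sets higher and the 202 lower at 12 h. The median of the higher set is at its maximum at 12 h of stratification, and that of the lower set is near 18 after 48 h of light.

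Individual genes show how far these courses diverged. AT2G38240, AT4G35985 and CML38 were near the floor again at 48 h of stratification, with means of 16.8, 9.1 and 11.8. STZ averaged 13.2 there, below its mean of 529.7 in dry seed. CP1, a cysteine protease gene, had 173.5, 157.7 and 170.2 at 12 h, against 14.1, 17.9 and 29.7 at 1 h (2.35, SE 0.14, adjusted p = 1.3e-11), and averaged 785.6 at 48 h of stratification. HTB1 averaged 1030 there. Among the genes that fell, LHCB4.1 had a mean of 18.7 at 48 h of stratification and 4447 after 48 h of light.

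The move into light and warmth allows the same probe sets to be compared in other arrays, 1 h of light against 48 h of stratification. Over the whole array 129 probe sets (0.567%) were higher and 50 (0.22%) lower at 1 h of light. Among the 8349 probe sets with a mean of at least 50 at 12 h or 1 h of stratification these shares were 1.26% and 0.467%. Of the 655 that rose during stratification 33 (5.04%) were higher again at 1 h of light and 24 (3.66%) were lower. Of the 202 that fell 22 (10.9%) were higher at 1 h of light and 2, XERICO and AT4G28240, were lower. The light arrays also differ in temperature, so light and warmth cannot be told apart.

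AT3G10040 was the named gene of the low oxygen list with the largest rise at 1 h of light, averaging 712.9 there and 53.1 at 48 h of stratification (3.40, SE 0.13). AT4G10270, AT1G33055 and AT3G27220 of the same list were called there too, 4 of 20 in all, beside 0.567% of the array. EXO averaged 617.0 at 1 h of light, with a standard deviation of 368.8, and 109.8 at 48 h of stratification (2.2, SE 0.23). AT1G22110 (2.64), AT4G27280 (2.1), AT2G47440 (2.01), AT4G27652 (1.79), AT4G02540 (1.73) and AT3G23170 (1.53) were among those that rose in both, with AT3G19680 (4.3) far above them. AT1G22110 lost its stratification call with 64 added in place of 16. AT1G54120 rose by 1.56 during stratification and fell by 2.09 at 1 h of light.

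Genes that fell during stratification and were higher at 1 h of light were led by AT1G14200. It had 377.5, 362.1 and 364.8 at 12 h, against 1496, 1195 and 1364 at 1 h of stratification (-1.83, SE 0.14, adjusted p = 1.15e-09), and averaged 688.1 at 1 h of light and 20.2 at 48 h of stratification (4.24, SE 0.14). AT1G71000 fell by 1.54 and then rose by 3.67, and AT3G26510 fell by 1.22 and then rose by 2.75. The heat shock gene AT5G37670 averaged 290.7 at 1 h of light and 34.3 at 48 h of stratification (2.51, SE 0.21). Of the 9 named heat shock genes 5 were called higher there, beside 0.567% of the array. The arrays at 1 h of light were uneven for these 5. Standard deviations were 149.0 for AT5G37670, 205.5 on a mean of 307.9 for Hop3 and 56.7 on 63.3 for AT5G48570. They were 298.9 on 674.4 for AT5G51440 and 146.1 on 317.3 for AT1G52560.

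**Figure D5:**
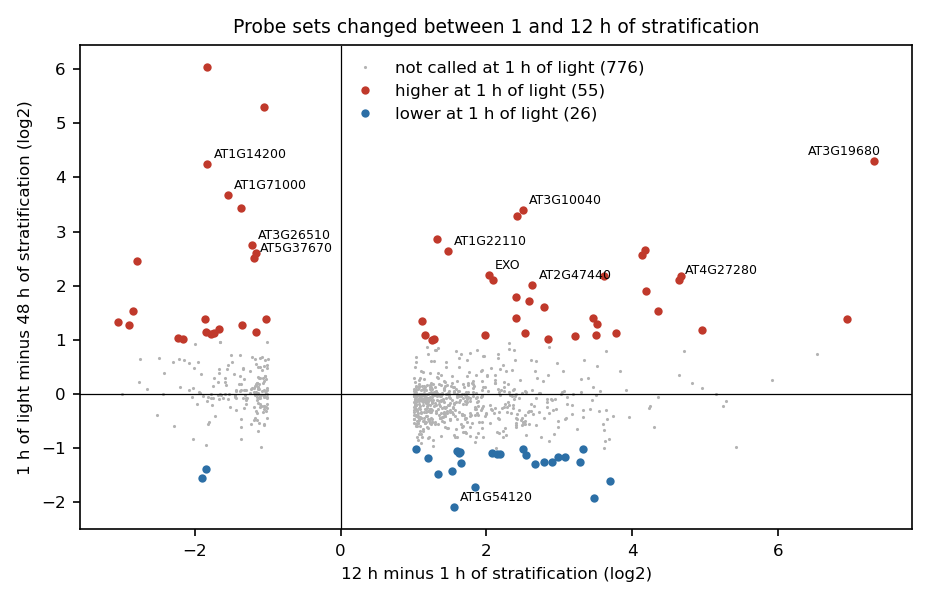
Difference between 1 h of light and 48 h of stratification against the difference between 12 h and 1 h of stratification (both log2) for the 857 probe sets changed between 12 h and 1 h, with genes labelled where the vertical difference is at least 2 in size. Of these, 55 were higher and 26 lower at 1 h of light, and the 22 points at upper left fell during stratification.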

How the data were processed

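Values were the deposited intensities of the series matrix on a linear scale. The submitters' processing notes name MAS5, RMA and Partek without saying which made these values, and no source used here names a genome build. Intensity + 16 was put on the log2 scale, which lifts low values and understates their changes, from the values the authors deposited. With 64 control probe sets set aside, 22746 were fitted in limma 3.58.1 (R 4.3.3) with 1 mean per group over 30 arrays (20 residual degrees of freedom), and Benjamini-Hochberg adjustment ran over all of them. The fit was tested on simulated data. Probe sets were named from the platform annotation, and 13436 of 13513 were found in RefSeq (TAIR10.1).

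The members and gene lists were chosen with earlier results of these data known. Genes were named by rule: the 20 largest rises and 15 largest falls without overlap between groups, called list members, the largest difference in lists without a call, the 5 brightest rises and falls, and 10 genes also higher at 1 h of light. Genes with a symbol, families and genes called in both comparisons were added after their values were seen. Alternatives were other pseudocounts, scalings, filters, sample sets and a replicate block. Same-numbered arrays at 12 h and 1 h had deviations correlated at 0.08, 0.05 and -0.12, and differently numbered arrays at -0.23 to 0.22. With 3 arrays per group these values cannot show whether the numbers pair the samples. The main fit treated the samples as unpaired. The number of arrays limits the precision. Promoter motifs and sequences were not analysed here.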

Additional observations from a re-analysis of the deposited data

How the results depend on the processing

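No named gene changed direction in the alternatives run. With a pseudocount of 64 the changed probe sets numbered 482 (371 higher, 111 lower), of which 21 rose again at 1 h of light, and 11 of the higher then fell and 9 of the lower then rose. With a pseudocount of 1 there were 333 lower, of which 38 were higher and 9 lower at 1 h of light. Quantile normalization gave 4 that were lower in both. Leaving out 1 array at a time gave 844 to 875 changed, 627 to 671 higher, 186 to 219 lower, 33 to 35 higher in both and 2 to 4 lower in both. With the replicate number as a block 857 changed, so the block changed none of these counts. Every group holds the same replicate numbers, so a block leaves the differences between groups as they were. The call rests on the size of the difference as well as the adjusted p. The unchanged counts therefore cannot show whether the numbers pair the samples. A fit on the 6 arrays alone gives no light counts. Of 150 genes followed through the alternatives, 35 lost their call with a pseudocount of 64, which by construction shrinks differences of dim genes. GID1C passed the call with a pseudocount of 1 and without 1 h replicate 2. The planned promoter motif description was not run. Values under about 16 limit what can be said of dim genes.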

Other observations

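Neighbouring genes were looked at where both members of an adjacent pair in RefSeq are named on the array, 5845 pairs in all. In 6 pairs both genes rose, in none did both fall, and in 2 the directions were opposite. Of the neighbours of a gene that rose 4.33% rose too, against 2.37% of all genes in these pairs. The pairs that rose together were AT1G33055 (3.21) with NAC014 (1.12), AT1G78040 (1.38) with PGM (1.16), AT3G50340 (1.36) with AT3G50350 (1.77), AT4G27652 (2.41) with AT4G27654 (2.63), AT4G39670 (1.03) with AT4G39675 (3.63) and AT5G06270 (1.94) with AT5G06280 (1.06). In the pairs of opposite direction, AT1G76590 fell by 1.12 beside AT1G76600 (2.11), and AT5G66430 fell by 1.97 beside AT5G66440 (3.08).

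Plastid genes are covered by 69 probe sets, of which none was called in either direction. Beside this, 2.88% of all probe sets rose and 0.888% fell, so few calls would be due among 69. The median difference of the 69 was -0.27. The genes named among the rises had a median genomic length of 1953 bases in RefSeq and those among the falls 1861, beside 2117 over all named genes. For the housekeeping controls, the 3' minus 5' difference of Actin ran between 3.50 and 3.82 at 12 h and between 3.30 and 3.82 at 1 h on the log2 scale, that of GAPDH between 2.122 and 2.361 at 12 h and between 2.103 and 2.46 at 1 h, and that of the ubiquitin control between 0.81 and 1.01 at 12 h and between 0.93 and 1.05 at 1 h. The groups overlap in all 3 of these controls.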
